A study of Rattus norvegicus with 10 samples.

Results

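DNA replication and S phase genes were examined in HSC-2, a hepatic stellate cell line of Wistar rats, and in lines derived from it. The gene set named 45 genes of origin licensing, the replicative helicase, the sliding clamp, the DNA polymerases, nucleotide supply, chromatin assembly and the entry into S phase. A gene was measured where the platform annotation gave a probe set exactly 1 symbol, and the probe set with the highest mean over the arrays was taken where there were several. That rule found 42 of the 45 genes among 13286 genes measured in this way, and Cdc6, Gins2 and Rrm2 had no such probe set. All 42 passed the filter on low values, which asked only for 1 array above the lowest deposited value.

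The groups were 3 clones called S1, S4 and S5 that were transfected to overexpress rno-miR-146a, a line transfected with a scrambled control sequence and the untransfected HSC-2 cells, each sampled at passage 42 and at passage 43 on 10 Affymetrix arrays in all. Each miR-146a line was 1 clone, all lines grew in high-glucose DMEM with fetal bovine serum, and the promoter that drives the microRNA is not given in the sources used here. The mature microRNA, which is printed with its seed (bases 2 to 8) in capitals because it is what sets the clones apart by label, lies on chr10:28350053-28350074 of GRCr8, minus strand, in RefSeq.
rno-miR-146a-5p: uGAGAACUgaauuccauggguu

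Array medians lay between 97.7 and 103.7 intensity units, and 14.6% of all values were at the floor of 20 (log2 4.32). The stellate and myofibroblast markers Vim, Col1a1, Col1a2 and Col3a1 were between 17936 and 27458 intensity units on every array. Others of that list varied more across arrays, Acta2 between 1124 and 9626, Tagln between 3588 and 18208, Lox between 6370 and 17283 and Pdgfrb between 719.8 and 1666. Des lay between 86.4 and 187, Reln was at most 41.5 and Hgf at most 29.7. Of the markers of hepatocytes, macrophages and leukocytes, endothelium and biliary epithelium, 13 of 16 measured were under 100 intensity units on all arrays. The exceptions were Ttr, Cd14 and Tek, and Ptprc and Krt19 were at the floor on 8 and 6 of the 10 arrays. The labels do not say whether passage 42 and passage 43 were separate cultures, so every p-value below reflects the spread among these 10 arrays alone, and that spread may be technical.

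DNA replication starts from origins that are bound by the origin recognition complex, loaded in G1 with the MCM helicase by Cdc6 and Cdt1, and fired in S phase when Cdc45 and the GINS complex join the helicase. Polymerase alpha with primase begins each strand, the clamp loader places the PCNA ring, and polymerases delta and epsilon extend the DNA. Many of these genes are switched on together at the G1/S transition by E2F factors, so that in cultured cells their transcripts often follow the share of cells that are cycling. In RNA from whole cultures, fewer cells in S phase and less RNA per cell cannot be told apart.

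Promoters of 38 of the 42 genes were found in the RefSeq promoter table of GRCr8, as windows of 250 bases before and 50 bases after the gene start. An E2F motif, given by the letters TTTCGCGC, TTTGGCGC, TTTCCCGC or TTTGCCGC on either strand, was in the promoters of 15 of the 38 (39.5%), against 2.14% of all 33469 promoters in the table. The motif letters can overlap their own reverse complement. CCAAT, the core of the NF-Y motif, was in 21 of the 38 (55.3%), against 37.5% of all promoters, and TTTGAA, the CHR element of mitosis genes, in 3 of the 38 (7.89%), against 18.3%. A match is a description of letters and not of a bound site, and no match says only that these letters are not in the window. Of the windows below, 4 show the 100 bases before the start of genes with a match, with E2F letters in capitals, and the last shows Orc2, a gene with no match whose level varied little.
Mcm2, chr4:122918095-122918194, minus strand: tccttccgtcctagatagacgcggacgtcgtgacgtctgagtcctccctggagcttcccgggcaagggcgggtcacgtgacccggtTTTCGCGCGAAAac
Mcm7, chr12:22163179-22163278, minus strand: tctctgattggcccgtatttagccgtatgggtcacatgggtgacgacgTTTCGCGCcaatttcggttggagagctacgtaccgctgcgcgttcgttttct
Gins1, chr3:160184820-160184919, plus strand: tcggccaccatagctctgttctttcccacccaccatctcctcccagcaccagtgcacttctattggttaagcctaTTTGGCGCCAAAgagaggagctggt
Tyms, chr9:120776084-120776183, minus strand: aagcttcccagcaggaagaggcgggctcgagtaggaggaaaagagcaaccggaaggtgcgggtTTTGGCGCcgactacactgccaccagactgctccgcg
Orc2, chr9:67526650-67526749, minus strand: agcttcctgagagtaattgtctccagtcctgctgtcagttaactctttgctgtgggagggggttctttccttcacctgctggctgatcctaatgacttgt
Within these bases Mcm2 and Gins1 have a match on each strand, which overlap, and Mcm7 and Tyms have 1 match each. The median change between passages, described next, was -0.60 on the log2 scale for the 15 genes with a match and -0.49 for the 23 without.

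The replication genes were lower at passage 43 than at passage 42. In the fit with line as a block, limma called 24 of the 42 genes lower (adjusted p under 0.05 over all probe sets) and none higher, with all 42 fold changes below 0 and 41 at an unadjusted p under 0.05. Over all 27520 probe sets, 3.09% were called lower and 2.43% higher, and 21.4% had an unadjusted p under 0.05. The median change of the 42 genes was -0.555 on the log2 scale, against -0.0012 for all probe sets, and single genes lay between -1.18 and -0.18. The array was lower at passage 43 in all 5 lines for 33 of the 42 genes (78.6%), against 11% of all probe sets. The exceptions were Mcm2, Cdt1, Pcna, Rfc4, Pole2, Pold2, Rpa1, Chaf1b and Uhrf1. The called count was 19 without the untransfected line and 20 without the scrambled line, against 3.36% and 1.69% of all probe sets called lower. In the 3 clones alone it was 20, with 935 of all 27520 probe sets called either way. It was 0 without clone S1, S4 or S5, where limma also called 0 of all probe sets. In those last fits 39 or 40 of the 42 genes had an unadjusted p under 0.05, and the median was between -0.58 and -0.55. The summed level of the 11 measured stellate and myofibroblast markers lay between 104351 and 131113 intensity units at passage 43 and between 105335 and 127453 at passage 42.

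**Figure D1:**
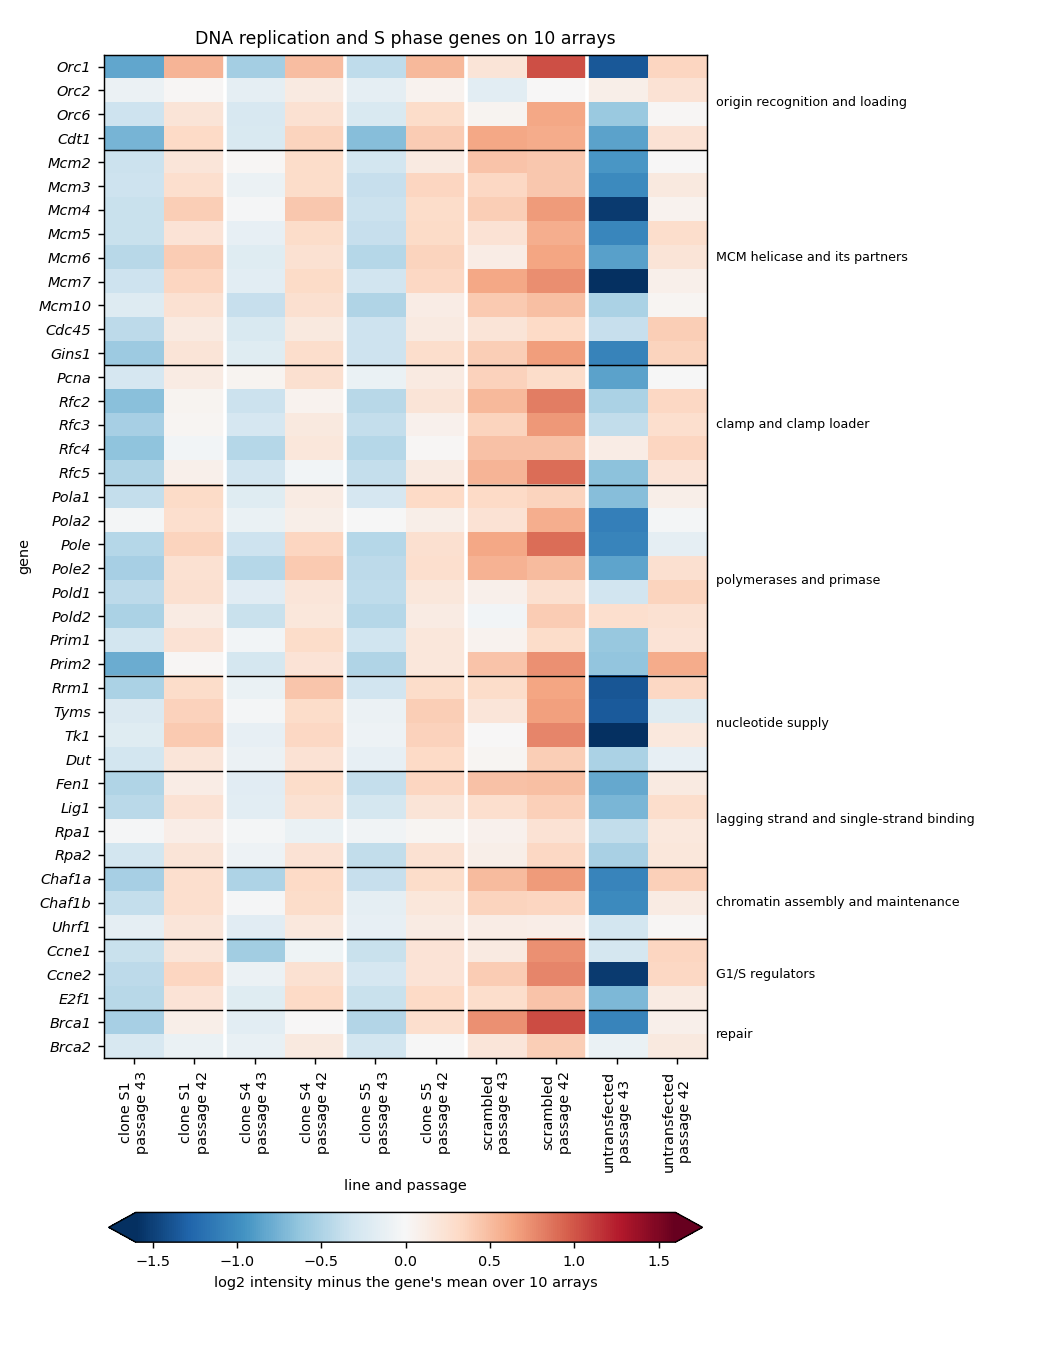
Log2 intensity of the 42 replication genes, each as the difference from its own mean over 10 arrays, in rows ordered by role and with columns ordered by line, passage 43 left of passage 42. The untransfected column of passage 43 is the lowest for most genes (median -0.77) and the scrambled column of passage 42 the highest (median 0.54).

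The size of the change between passages varied by line. The median over the 42 genes was -0.62 in clone S1, -0.42 in clone S4, -0.59 in clone S5, -0.24 in the scrambled line and -0.92 in the untransfected line. All 42 genes were lower at passage 43 in S1 and S5, 41 in S4 (not Rpa1), 35 in the scrambled line and 41 in the untransfected line (not Pold2). Of all probe sets, between 48.8% and 51% were lower in each line. The 7 genes that were not lower in the scrambled line were Mcm2, Cdt1, Pcna, Rfc4, Pole2, Chaf1b and Uhrf1, at 0.0066 to 0.08. In the untransfected line 19 of the 42 genes were at least 1 log2 unit lower, against 1.35% of all probe sets. The corresponding counts were 2 in S1, 1 in S4, 1 in S5 and 0 in the scrambled line. Of all probe sets these were 0.127%, 0.149%, 0.203% and 0.454%. The untransfected line had the largest fall of the 5 lines for 33 genes (78.6%, against 28.9% of all probe sets), and the scrambled line the smallest fall, or a rise, for 28 (66.7%, against 22.9%). Each line has 1 array at each passage, and these counts by line are a description.

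**Figure D2:**
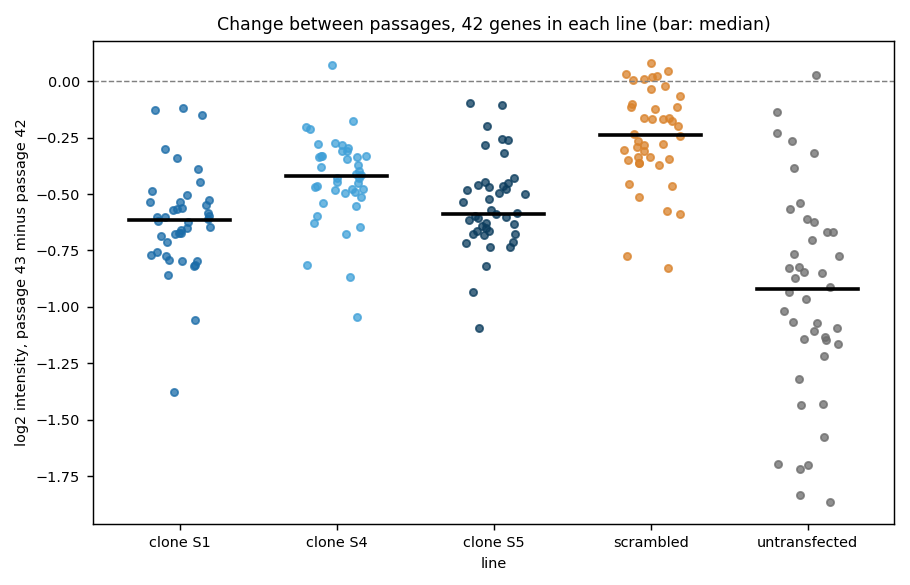
Each point is 1 of 42 replication genes, plotted as log2 intensity at passage 43 minus passage 42 in the line named on the x axis, with a bar at the median. The untransfected points reach the lowest values (median -0.92) and the scrambled points lie nearest to 0 (median -0.24).

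The difference in passage change between the clones and the control lines was tested as an interaction. Limma called none of the 42 genes, with a lowest adjusted p of 0.489, and it called 0.0182% of all probe sets. At an unadjusted p under 0.05 were 2 of the 42 genes, against 8.35% of all probe sets. The median of this difference, clones minus control lines, was 0.055 over the 42 genes, and the control side joins the line with the largest falls and the line with the smallest. Against the untransfected line alone the median was 0.37, and 19 genes had an unadjusted p under 0.05 and a difference above 0, against 13.4% of all probe sets. Against the scrambled line alone the median was -0.32, and 15 genes had an unadjusted p under 0.05 and a difference below 0, against 8.5%. Limma called 0 of all probe sets in either fit. With both control lines the difference for Mcm7 was 0.32 (95% interval -0.72 to 1.36) and for Rfc2 -0.02 (95% interval -0.49 to 0.45).

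Among the genes of origin recognition and loading, Orc1, the ATPase subunit of the origin recognition complex that is made anew in each cycle, had the largest fall of the 42. Its log2 level was 4.85, 5.13 and 5.27 in clones S1, S4 and S5, 5.89 in the scrambled line and 4.32 in the untransfected line at passage 43, against 6.23, 6.18 and 6.20 in the clones, 6.71 in the scrambled line and 6.02 in the untransfected line at passage 42. Each passage 43 array lay below all 5 passage 42 arrays, and the untransfected array of passage 43 was at the floor, so the fall in that line is a lower bound. Orc1 fell by 1.18 (SE 0.13, limma adjusted p = 0.0102). Orc2, another subunit of the complex, was at 8.89, 8.84 and 8.84 in the clones, 8.82 in the scrambled and 9.09 in the untransfected line at passage 43, against 9.01, 9.13 and 9.04 in the clones, 8.99 in the scrambled and 9.22 in the untransfected line at passage 42. Its values stayed between 8.82 and 9.22, and it was at -0.18 (SE 0.06, limma adjusted p = 0.12).

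Orc6, the small subunit, fell by 0.55 (SE 0.05, limma adjusted p = 0.00938), with a like change in every line, between -0.61 and -0.49. Cdt1, which loads the helicase onto origins, fell by 0.76 (SE 0.17, limma adjusted p = 0.0471). Its change was -1.06, -0.60 and -1.09 in the clones, 0.02 in the scrambled line and -1.09 in the untransfected line, with the scrambled line alone near 0.

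The 9 measured genes of the helicase and its partners had a median change of -0.67, and 5 of them were called lower. Mcm7, a subunit of the MCM ring, was at 10.77, 10.94 and 10.80 in the clones, 11.73 in the scrambled and 9.47 in the untransfected line at passage 43, against 11.45, 11.42 and 11.44 in the clones, 11.85 in the scrambled and 11.18 in the untransfected line at passage 42. The scrambled arrays were the highest and the untransfected array of passage 43 stood apart below all others. Mcm7 was at -0.73 (SE 0.20, limma adjusted p = 0.0883), with -0.68, -0.48 and -0.64 in the clones, -0.12 in the scrambled line and -1.72 in the untransfected line. Cdc45, the helicase cofactor that marks firing origins, was at 8.86, 9.03 and 8.95 in the clones, 9.49 in the scrambled and 8.91 in the untransfected line at passage 43, against 9.42, 9.44 and 9.42 in the clones, 9.60 in the scrambled and 9.68 in the untransfected line at passage 42. Its passage 43 arrays were lower in every line, and Cdc45 fell by 0.46 (SE 0.09, limma adjusted p = 0.0379).

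Mcm6 and Mcm5, further subunits of the ring, fell by 0.74 (SE 0.10) and 0.67 (SE 0.14). Mcm10, which helps to activate the helicase, fell by 0.46 (SE 0.09), and Gins1, a subunit of the GINS complex, by 0.72 (SE 0.15). Mcm2, Mcm3 and Mcm4 were at -0.43, -0.59 and -0.74 and were not called, with limma adjusted p = 0.104, 0.0573 and 0.054. Mcm4 ranged from -0.29 in the scrambled line to -1.58 in the untransfected line.

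In the clamp and its loader, 3 of 5 genes of the gene set were called lower. Rfc1, a loader subunit counted in another list, was at -0.05 (limma adjusted p = 0.708). Pcna, the sliding clamp that holds polymerases on DNA, was at 11.98, 12.29 and 12.14 in the clones, 12.62 in the scrambled and 11.40 in the untransfected line at passage 43, against 12.37, 12.50 and 12.39 in the clones, 12.53 in the scrambled and 12.24 in the untransfected line at passage 42. It was lower at passage 43 in 4 lines and slightly higher in the scrambled line, and it was at -0.32 (SE 0.12, limma adjusted p = 0.184). Rfc2, a subunit of the clamp loader, was at 9.36, 9.69 and 9.58 in the clones, 10.55 in the scrambled and 9.53 in the untransfected line at passage 43, against 10.07, 10.09 and 10.23 in the clones, 10.85 in the scrambled and 10.36 in the untransfected line at passage 42. Both scrambled arrays lay above all other arrays, and Rfc2 fell by 0.58 (SE 0.09, limma adjusted p = 0.0179). Rfc3 and Rfc5, which belong to the same loader, fell by 0.49 (SE 0.07) and 0.52 (SE 0.09), while Rfc4 was at -0.39 (limma adjusted p = 0.0798).

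Of 8 polymerase and primase genes, 5 were called lower, namely Pole, Pole2, Pold1, Prim1 and Prim2. Pole, the catalytic subunit of polymerase epsilon, was at 7.43, 7.55 and 7.43 in the clones, 8.51 in the scrambled and 6.83 in the untransfected line at passage 43, against 8.24, 8.23 and 8.14 in the clones, 8.77 in the scrambled and 7.74 in the untransfected line at passage 42. The scrambled line was highest and the untransfected line lowest at each passage, and Pole fell by 0.68 (SE 0.10, limma adjusted p = 0.0159). Pold1, the catalytic subunit of polymerase delta, was at 8.58, 8.82 and 8.60 in the clones, 9.09 in the scrambled and 8.69 in the untransfected line at passage 43, against 9.25, 9.19 and 9.19 in the clones, 9.26 in the scrambled and 9.36 in the untransfected line at passage 42. At passage 42 the lines lay within 9.19 to 9.36, at passage 43 the scrambled array was the highest, and Pold1 fell by 0.49 (SE 0.09, limma adjusted p = 0.0277). Prim2 and Prim1, the primase subunits, fell by 0.69 (SE 0.13) and 0.49 (SE 0.09). Pola1 and Pola2 of polymerase alpha were at -0.48 and -0.40, and Pold2 at -0.44, with limma adjusted p = 0.0534, 0.14 and 0.0555. Pold2 was the only one of the 42 not lower in the untransfected line (0.03).

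The genes of nucleotide supply had the largest median change of the 9 roles (-0.70 over 4 genes). Tyms, the thymidylate synthase, was at 7.34, 7.53 and 7.48 in the clones, 7.77 in the scrambled and 6.23 in the untransfected line at passage 43, against 7.94, 7.86 and 7.96 in the clones, 8.23 in the scrambled and 7.37 in the untransfected line at passage 42. The untransfected line was the lowest at each passage, and Tyms fell by 0.60 (SE 0.12, limma adjusted p = 0.033). Dut, the dUTPase that keeps uracil out of DNA, was at 10.60, 10.80 and 10.76 in the clones, 10.92 in the scrambled and 10.38 in the untransfected line at passage 43, against 11.09, 11.13 and 11.21 in the clones, 11.29 in the scrambled and 10.77 in the untransfected line at passage 42. It was lower in every line by 0.33 to 0.49, and Dut fell by 0.40 (SE 0.06, limma adjusted p = 0.0156). Tk1, the S phase thymidine kinase, and Rrm1, the large subunit of ribonucleotide reductase, were at -0.83 and -0.80 and were not called, with limma adjusted p = 0.0568 and 0.0515. In the untransfected line they were at -1.84 and -1.70, against -0.78 and -0.34 in the scrambled line.

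Fen1, the flap nuclease of Okazaki fragments, was at 7.85, 8.14 and 7.94 in the clones, 8.79 in the scrambled and 7.51 in the untransfected line at passage 43, against 8.44, 8.63 and 8.68 in the clones, 8.81 in the scrambled and 8.48 in the untransfected line at passage 42. The scrambled arrays were highest and nearly equal, and Fen1 fell by 0.56 (SE 0.13, limma adjusted p = 0.0499). Rpa1, the large subunit of the single-strand binding protein, was at 9.69, 9.69 and 9.66 in the clones, 9.78 in the scrambled and 9.32 in the untransfected line at passage 43, against 9.82, 9.61 and 9.75 in the clones, 9.95 in the scrambled and 9.88 in the untransfected line at passage 42. It had the smallest change of the 42 and was at -0.18 (SE 0.09, limma adjusted p = 0.341). Rpa2, its partner, fell by 0.48 (SE 0.08), and Lig1, the ligase that seals Okazaki fragments, was at -0.54 (limma adjusted p = 0.0501).

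Chaf1a, the large subunit of the chromatin assembly factor that follows the fork, was at 7.52, 7.55 and 7.68 in the clones, 8.56 in the scrambled and 6.99 in the untransfected line at passage 43, against 8.32, 8.36 and 8.34 in the clones, 8.73 in the scrambled and 8.43 in the untransfected line at passage 42. Only the scrambled array of passage 43 stayed above the passage 42 arrays of other lines, and Chaf1a fell by 0.78 (SE 0.16, limma adjusted p = 0.037). Uhrf1, which brings maintenance methylation to new DNA, was at 4.47, 4.43 and 4.49 in the clones, 4.74 in the scrambled and 4.32 in the untransfected line at passage 43, against 4.81, 4.78 and 4.75 in the clones, 4.72 in the scrambled and 4.64 in the untransfected line at passage 42. These values are near the floor, and at it for the untransfected array of passage 43, which leaves little room to read a fall. It was at -0.25 (SE 0.07, limma adjusted p = 0.0998). Chaf1b, the middle subunit, was at -0.48 (limma adjusted p = 0.123).

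Of the G1/S regulators, E2f1, the transcription factor that activates many replication genes, was at 7.85, 8.11 and 7.94 in the clones, 8.59 in the scrambled and 7.59 in the untransfected line at passage 43, against 8.52, 8.62 and 8.62 in the clones, 8.76 in the scrambled and 8.44 in the untransfected line at passage 42. All passage 43 arrays except that of the scrambled line lay below the 5 passage 42 arrays, and E2f1 fell by 0.58 (SE 0.10, limma adjusted p = 0.0244). Ccne1 and Ccne2 are the E cyclins that activate Cdk2 at the start of S phase. Ccne1 was at 7.25, 7.05 and 7.25 in the clones, 7.74 in the scrambled and 7.33 in the untransfected line at passage 43, against 7.80, 7.53 and 7.82 in the clones, 8.33 in the scrambled and 7.95 in the untransfected line at passage 42. It fell by 0.56 (SE 0.06, limma adjusted p = 0.00938), with a like change in all lines. Ccne2 was at 8.67, 8.998 and 8.82 in the clones, 9.50 in the scrambled and 7.56 in the untransfected line at passage 43, against 9.43, 9.33 and 9.31 in the clones, 9.87 in the scrambled and 9.42 in the untransfected line at passage 42. The untransfected array of passage 43 stood far below the rest, and Ccne2 was at -0.77 (SE 0.22, limma adjusted p = 0.0904).

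Brca1 and Brca2 act in homologous recombination, which repairs broken forks. Brca1 was at 5.90, 6.26 and 5.96 in the clones, 7.17 in the scrambled and 5.37 in the untransfected line at passage 43, against 6.52, 6.44 and 6.69 in the clones, 7.48 in the scrambled and 6.51 in the untransfected line at passage 42. Both scrambled arrays lay above all others, and Brca1 fell by 0.59 (SE 0.13, limma adjusted p = 0.0497). Brca2 was at 7.19, 7.33 and 7.16 in the clones, 7.65 in the scrambled and 7.34 in the untransfected line at passage 43, against 7.34, 7.61 and 7.44 in the clones, 7.85 in the scrambled and 7.61 in the untransfected line at passage 42. The scrambled line was the highest at each passage, and Brca2 was at -0.23 (SE 0.06, limma adjusted p = 0.0576). Of the 42 genes, 8 had several probe sets, 20 in all, which were all lower at passage 43, and limma called 14 of the 20. The second probe set of Ccne2 and the dimmest of the 4 for Cdc45 had low mean levels (log2 5.06 and 5.22) and were at -0.11 and -0.05. Tk1 and Lig1 were not called by the probe set taken, but their other probe sets were called lower. These had limma adjusted p = 0.0428 and 0.0169 for Tk1 and 0.0119 for Lig1.

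**Figure D3:**
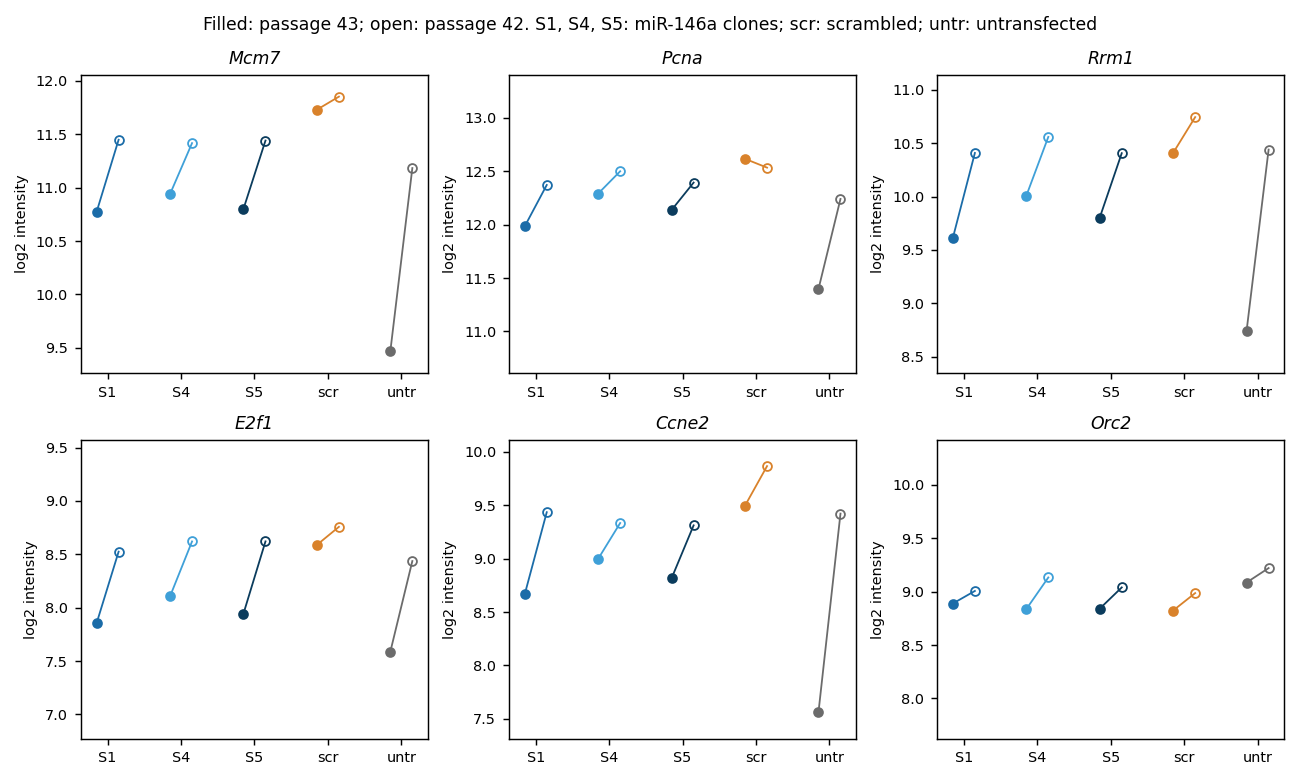
Log2 intensity of 6 genes in the 5 lines, with filled points for passage 43 left of open points for passage 42 and a line joining the arrays of 1 line, all panels spanning the same range. The untransfected line drops most in Mcm7, Rrm1 and Ccne2, the scrambled line stays highest in all but Orc2, and Orc2 barely moves.

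The 42 genes also differed between the control lines. At the level of line means, the scrambled line was the highest of the 5 lines for 40 genes (95.2%, against 26.8% of all probe sets), the exceptions being Orc2 and Pold2. The untransfected line was the lowest for 32 genes (76.2%, against 27.3%), and for the same 32 the scrambled line was the highest (10.2% of all probe sets showed both). The place of the untransfected line differed by passage. The clone mean was above it for 25 genes and below it for 17 at passage 42, against 35 and 7 at passage 43. The scrambled line was above the untransfected line at both passages for 38 genes (90.5%, against 30.3%), and both of its arrays lay above both untransfected arrays for 27 (64.3%, against 21.8%).

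The difference between the scrambled and the untransfected line had a median of 0.76 over the 42 genes, against 0 for all probe sets, with 40 genes above 0. In the fit with 1 coefficient per line and no passage term, limma called none of the 42. The lowest adjusted p was 0.0844, for Brca1, and 10 genes had an unadjusted p under 0.05. These 10 were all above 0, against 9.9% of all probe sets above 0 at that p and 12.6% below. Of all probe sets, 2.23% were called higher and 3.87% lower. The passage numbers were taken to pair the samples, as the passage changes of all 10 pairs of lines correlated, at 0.136 to 0.648 across probe sets. A correlation does not show what samples of the same passage number shared. The lowest r, 0.136, was that between the scrambled and the untransfected line. With passage as a replicate block, limma called 20 of the 42 genes higher in the scrambled line (47.6%) and none lower, against 5.63% and 7.46% of all probe sets. That block gives every line the same change between passages, whereas the untransfected line had larger falls than the others. At passage 43 alone the median difference was 1.14 (40 genes above 0), and at passage 42 alone it was 0.32 (39 genes above 0), each from 1 array a line. The summed level of the 11 measured stellate and myofibroblast markers was 104351 and 105335 intensity units in the scrambled line, against 127453 and 131113 in the untransfected line, and its part in the result was not tested. Without the untransfected array of passage 43, the fit without a passage term gave a median of 0.23, with 36 genes above 0, and limma called none of the 42, with 0 at an unadjusted p under 0.05. Without the untransfected array of passage 42 the median was 1.23 and 12 of the 42 genes were called higher, against 5.01% of all probe sets.

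The 20 genes were Mcm2, Mcm4, Mcm6, Mcm7, Mcm10, Orc1, Orc6, Pcna, Rfc2, Rfc3, Rfc5, Pola2, Pole, Tyms, Fen1, Chaf1a, Ccne1, E2f1, Dut and Brca1. With the block, Mcm7 was higher by 1.47 (SE 0.32, limma adjusted p = 0.0277) and Brca1 by 1.38 (SE 0.21, limma adjusted p = 0.00829). Pole was higher by 1.36 (SE 0.15) and Tyms by 1.20 (SE 0.18). Pcna was higher by 0.76 (SE 0.20), E2f1 by 0.66 (SE 0.16) and Ccne1 by 0.40 (SE 0.09). Without the block these 7 genes had limma adjusted p = 0.143, 0.0844, 0.0988, 0.116, 0.141, 0.329 and 0.529. The clamp loader split, with Rfc5 at 0.94 and Rfc2 at 0.76 but Rfc4 at 0.24, which was not called. Orc2 and Pold2 were the genes below 0, at -0.25 and -0.08. For Dut the probe sets disagreed, with 0.53 for the brighter and -0.31 for the dimmer one.

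The clones were set against the scrambled line, the control that was also transfected. The median over the 42 genes was -0.41, against -0.0015 for all probe sets, with 41 genes below 0. Every clone array was below the scrambled array of its own passage for 39 genes (92.9%, against 18.7% of all probe sets), the exceptions being Orc2, Prim1 and Uhrf1. All 6 clone arrays lay below both scrambled arrays for 21 genes (50%, against 12.2%). Without a passage term limma called none of the 42, with a lowest adjusted p of 0.103. The 7 genes at an unadjusted p under 0.05 were all below 0, against 8.95% of all probe sets below 0 at that p and 10.8% above. Limma called 2.97% of all probe sets lower and 3.93% higher. With passage as a replicate block it called 12 lower (28.6%) and none higher, against 4.95% and 6.52% of all probe sets. The median difference was -0.60 at passage 43 and -0.29 at passage 42.

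The 12 genes were Mcm10, Orc1, Orc6, Rfc2, Rfc3, Rfc4, Rfc5, Pole, Prim2, Ccne1, Brca1 and Brca2. They included all 4 clamp loader subunits of the gene set, whereas Rfc1, a further subunit, was counted in another list. With the block, Rfc5 fell by 0.88 (SE 0.12, limma adjusted p = 0.00422) and Rfc2 by 0.86 (SE 0.12, limma adjusted p = 0.00394). Brca1 fell by 1.02 (SE 0.17) and Ccne1 by 0.59 (SE 0.07, limma adjusted p = 0.0026). Without the block these 4 genes had limma adjusted p = 0.103, 0.141, 0.116 and 0.28. Pcna, the clamp that the loader places, was at -0.30 (SE 0.16) and was not called, nor were E2f1 at -0.39 and Mcm7 at -0.65. Nucleotide supply, the single-strand binding genes and the chromatin assembly genes had none called, with medians of -0.29, -0.29 and -0.31. This comparison and the one between the control lines share the scrambled arrays.

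**Figure D4:**
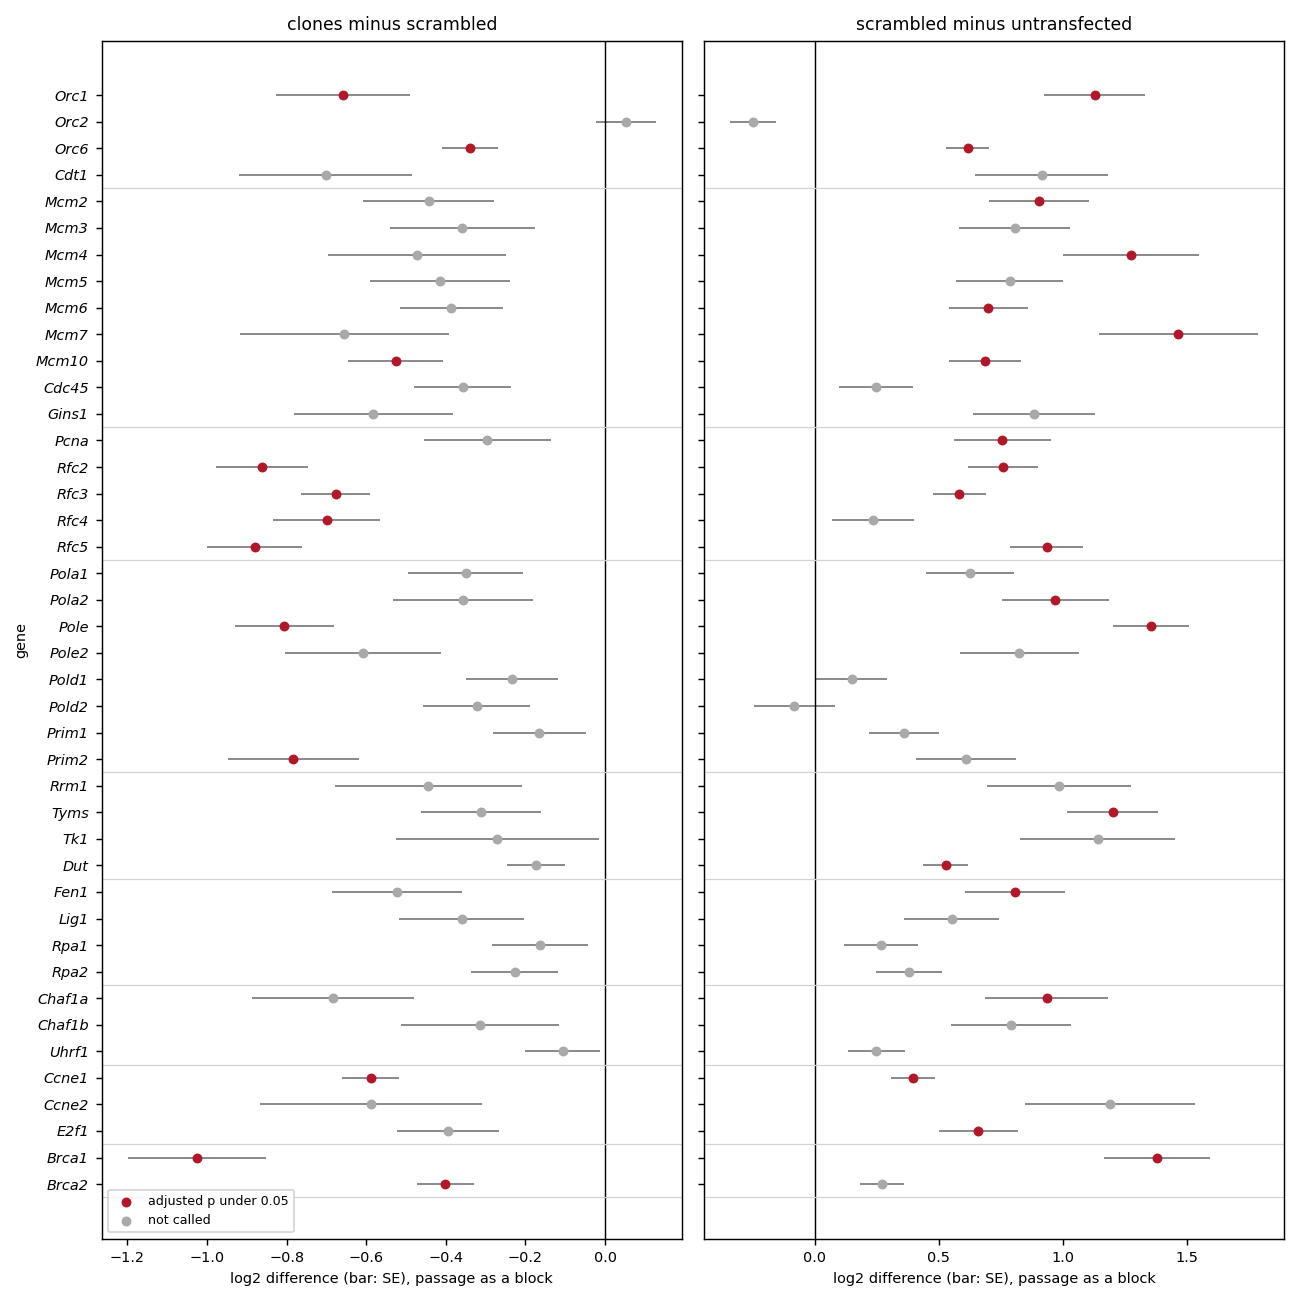
Log2 difference of each of 42 genes for the mean of the 3 clones minus the scrambled line (left) and the scrambled minus the untransfected line (right), with passage as a block, bars for the SE and red points for limma adjusted p under 0.05. On the left 41 of 42 points are below 0 and on the right 40 of 42 are above 0; grey lines divide the roles.

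Against the untransfected line the clones went the other way, with a median of 0.27 and 32 of the 42 genes above 0, against -0.0061 for all probe sets. Limma called none, with 2 at an unadjusted p under 0.05, against 24.1% of all probe sets. It called 4.12% of all probe sets higher and 4.51% lower. With passage as a replicate block it called 4 higher (9.52%) and none lower, against 7.44% and 7.59% of all probe sets. These were Tyms at 0.89 (SE 0.15), Pole at 0.55 (SE 0.12), Dut at 0.36 (SE 0.07) and Orc6 at 0.28 (SE 0.07). The median was 0.39 at passage 43 and 0.05 at passage 42, each from 1 untransfected array. The direction rested on the untransfected array of passage 43: without it the median was -0.22, with 36 genes below 0 and none called or at an unadjusted p under 0.05. Without the untransfected array of passage 42 the median was 0.73, and limma called 7 of the 42 genes higher, against 5.88% of all probe sets.

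With both control lines joined, the clones lay between them for most genes. On 5 line means, limma called none of the 42 genes, with 3 at an unadjusted p under 0.05, a median of -0.07 and a lowest adjusted p of 0.103, for Rfc4. Over all probe sets 0.603% were called higher and 0.294% lower, and 15.4% had an unadjusted p under 0.05. The difference was 0.08 (95% interval -1.02 to 1.18) for Mcm7 and 0.08 (95% interval -0.52 to 0.69) for Pcna. Without the scrambled line the median was 0.27, and without the untransfected line it was -0.41. Each of these fits has 1 control line mean, so its spread is that among the 3 clones alone and its calls are not read as a result. The median was 0.14 without the untransfected array of passage 42, and -0.33, with 41 genes below 0, without that of passage 43. Single clones against both control lines had medians of -0.09 in S1, -0.03 in S4 and -0.08 in S5, and none of the 42 was called without a passage term, with 2, 0 and 1 at an unadjusted p under 0.05. Of all probe sets, 3.84%, 3.12% and 2.97% were called in these clones, and 16.3%, 14.8% and 15.5% had an unadjusted p under 0.05. With passage as a replicate block, 4 genes were lower in S1 (Rfc2, Rfc3, Rfc4 and Brca2), Ccne1 in S4 and none in S5, against 3.03%, 2.29% and 2.58% of all probe sets called lower.

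Between the 3 clones no difference was called. The range of their means had a median of 0.14 over the 42 genes, the same as over all probe sets, and lay between 0.04 and 0.36. The F test between clones called none of the 42 and had 0 at an unadjusted p under 0.05. Of all probe sets, 0.0327% were called and 2.72% had an unadjusted p under 0.05. The largest range was in Prim2.

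Other genes of DNA replication were counted in 5 further lists, of which 81 genes were measured. At passage 43, 33 of the 81 were called lower and 2 higher, against 3.09% and 2.43% of all probe sets. These were 5 of 13 genes of origin licensing and firing, 9 of 21 of forks, polymerases and checkpoint, 7 of 14 of nucleotide synthesis, 7 of 10 of histones and chromatin and 5 of 23 of G1/S control. Asf1b, a histone chaperone at the fork, fell by 0.75 (SE 0.12) and Hells, a chromatin remodeller, by 0.90 (SE 0.20). Ppat, the first enzyme of purine synthesis, fell by 0.46 (SE 0.10). Pold4, the small subunit of polymerase delta, rose by 0.55 (SE 0.05, limma adjusted p = 0.00938), and Rb1, the retinoblastoma protein that restrains E2F factors, by 0.47 (SE 0.09, limma adjusted p = 0.033). Of 26 mitosis genes, 20 were called lower and none higher, with a median of -0.68, among them Ccnb2, a mitotic cyclin, at -0.64 and Bub1b, a spindle checkpoint kinase, at -0.84.

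**Figure D5:**
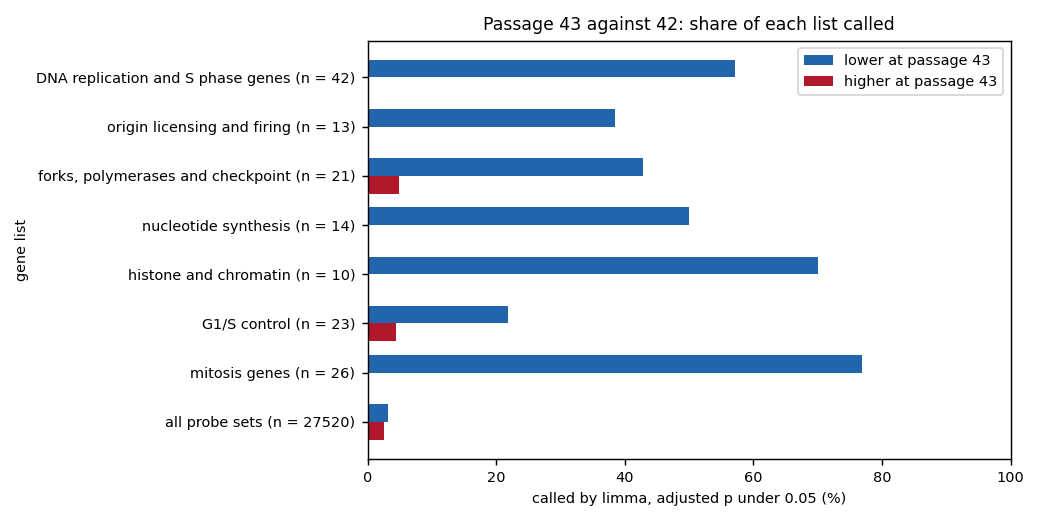
Share of each gene list, and of all 27520 probe sets, that limma called lower (blue) or higher (red) at passage 43 than at passage 42, with the number of genes measured. The 42 replication genes reach 57.1% lower and 0% higher, the mitosis list 76.9% lower and all probe sets 3.09%.

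Between the control lines, 2 of these 81 genes were called higher and 1 lower without a passage term, against 2.23% and 3.87% of all probe sets. With passage as a replicate block 26 were higher and 3 lower, against 5.63% and 7.46%. E2f2, an activating E2F factor, was higher in the scrambled than in the untransfected line by 2.80 (SE 0.39, limma adjusted p = 0.00754), and Cdkn2c, an inhibitor of Cdk4 and Cdk6, by 0.79 (SE 0.18, limma adjusted p = 0.0429). Ccnd2, a D cyclin, fell by 1.05 (SE 0.16, limma adjusted p = 0.00996). E2f8, a repressing E2F factor, was at 2.01 and passed with the block alone (limma adjusted p = 0.0677 without and 0.00833 with it). In the clones, E2f2 was lower than in the scrambled line, at -1.44 (SE 0.32, limma adjusted p = 0.0338), and higher than in the untransfected line, at 1.35 (SE 0.32, limma adjusted p = 0.039). Ccnd2 was lower in the clones than in either control line, at -1.32 against the scrambled and -2.37 against the untransfected line. Of the mitosis genes, none was called without a passage term and 3 of 26 were higher in the scrambled line with the block, against 5.63% of all probe sets. Their direction was nonetheless that of most replication genes. Between the scrambled and the untransfected line 25 were above 0 and 1 below (median 0.545). In the clones all 26 were below the scrambled line (median -0.384). Against the untransfected line 20 were above 0 and 6 below (median 0.117).

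The order of the lines that the 42 genes share was compared with that of genes outside all of these lists. Over 5 line means, 4 of the 5 genes that most resembled the standardised mean of the 42, among 1093 genes whose line means spanned at least 1 log2 unit, were Pctp, Smc2, Kntc1 and Cdca3, with r between 0.993 and 0.999. Smc2 is a condensin subunit, Kntc1 a kinetochore protein and Cdca3 a cell division protein. Their changes between passages were -0.69 for Smc2, -0.73 for Kntc1 and -0.74 for Cdca3, but 0.0042 for Pctp, and of these limma called only Kntc1 (adjusted p = 0.0169). With 5 points and so many candidates a high r is a description. Within the 42, r with the standardised mean was -0.72 for Orc2, 0.16 for Pold2 and 0.52 for Rfc4, and at least 0.646 for the other 39. Each gene is itself part of that mean, which raises its r.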

How the data were processed

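RNA of 5 HSC-2 lines at 2 passages was measured on 10 Affymetrix arrays. Per the submitters' processing notes the authors used RMA, whose version is not given in the sources used here. What was deposited is linear intensity with a floor of 20, and its log2 was used with no further scaling. The table holds 31099 probe sets, of which 27520 were tested after removal of 57 array controls and of 3522 that never rose above the floor. Tests used limma 3.58.1 in R 4.3.3 on log2 intensity, with Benjamini-Hochberg adjustment over all 27520 probe sets and a threshold of 0.05, and were tested on simulated data. Clones against controls used 5 line means (3 residual degrees of freedom), single lines the 10 arrays with 1 coefficient a line (5), and passage a fit with line as a block (4). Passage numbers were taken to pair the samples, as deviations correlated over 0.1 in all 10 pairs of lines (0.136 to 0.648). The number of arrays limits the precision. Array values are given for the genes of each role with the largest and smallest range of line means and for Pcna, E2f1, Ccne1 and Ccne2, and up to 4 genes of each other list by the smallest p between the control lines. The genes and lists were chosen with earlier results of these data known. Results for some genes that these rules would name are not reported here.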

Additional observations from a re-analysis of the deposited data

How the results depend on the processing

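The direction of the passage difference was kept in all 42 genes under quantile normalisation and array median centring. Limma with trend and robust settings, and a filter on dim probe sets that left 39 genes, cannot change a direction. Called lower were 26 genes under quantile normalisation, 29 under array median centring, 31 with trend and robust settings and 31 of 39 with the dim filter. The shares of all probe sets called lower were 3.18%, 3.35%, 3.47% and 6.84%. The main fit, and that with the probe set of largest variance, each called 24 genes, against 3.09% of all probe sets. The first 2 scalings gave medians of -0.55 and -0.57. Leaving out 1 array at a time gave 0 to 20 genes, with 0 for each clone array. The same gave 0 to 12 genes higher in the scrambled than in the untransfected line and 0 to 7 higher in the clones than in the untransfected line. Fits of clones against controls that left out 1 line gave 0 to 7 genes higher and 0 to 8 lower. Those without a clone called 0 of the 42 genes. All of these calls came from the fits with 1 control line left, whose spread is that among the 3 clones alone. Limma also called more of all probe sets in those fits than in the main fit. Their calls are therefore not read as a result for the 42 genes. With passage as a replicate block, in the pairing by passage number, 20 genes were higher in the scrambled than in the untransfected line (5.63% of all probe sets). In the clones 12 were lower than in the scrambled line (4.95%) and 4 higher than in the untransfected line (7.44%). Against both control lines 4 were lower in S1 (3.03%) and 1 in S4 (2.29%). With line as a random block too, 1 was lower in the clones than in the control lines. That fit called 1205 of the 27520 probe sets either way. The fits of the 3 clones alone (20) and without the untransfected line (19) were chosen after seeing the data. The clones lay above the untransfected line in the median gene (0.27), but below it (-0.22) without the untransfected array of passage 43. Genes at the floor have only a bound.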
